A study of Homo sapiens with 12 samples.

Results

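The genes described here are 10 genes of the long arm of chromosome 12, bands q15 to q22, in a stretch centred on KITLG. They are PTPRR, PAWR, PPP1R12A, TMTC3, CEP290, KITLG, ATP2B1, EEA1, UBE2N and USP44, 10 of the 18417 genes measured. A gene counted as measured when at least 1 probe set of the array was paired with it and with no other gene, and where several were, the one with the highest mean over the arrays was used. Each of the 10 genes had 1 such probe set. The members were chosen by their measured levels on these arrays, which shifted jointly between the cell lines. Their levels and differences are therefore given as a description, and nothing is read for them from the test run over all genes. Between PTPRR and USP44 lay 68 other measured genes, called neighbours here.

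The study measured total RNA of human pancreatic ductal adenocarcinoma cell lines on 12 whole-transcript arrays, 3 for each of 4 groups. AsPC1-R is a cisplatin-resistant derivative of AsPC1, kept in medium with 1.67 µM cisplatin. AsPC1 is its parental line, kept without the drug. BxPC3-R is the resistant derivative of BxPC3, kept with 0.60 µM cisplatin, and BxPC3 is the parental line, kept without it. Every group was harvested from adherent cultures that had not reached confluence, and both derivatives had spent their last passage without cisplatin. There was 1 derivative per parental line, so a difference between them may belong to that derivative alone. Nothing states that separate cultures gave the 3 samples of a line, so the p-values here rest on the spread between these samples alone, which may be technical.

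KITLG encodes stem cell factor, a growth factor made as a membrane-bound and as a shed form, which binds the receptor tyrosine kinase KIT on mast cells, germ cells, melanocytes and blood progenitors. The other members have no shared pathway. They include a phosphatase of MAP kinases, a death-promoting transcriptional regulator, a myosin phosphatase subunit, a glycosyltransferase, a protein of the ciliary base, a calcium pump, an endosomal tether and enzymes that attach or remove ubiquitin. What they have in common is that they lie along one stretch of one chromosome arm. Neither DNA copy number nor chromatin was measured here.

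Because members moved jointly, the sequences just before their starts were read from RefSeq on build GRCh38.p14. RefSeq promoter windows were found for 9 of the 10 members, 16 windows in all since some genes have several starts, and the window for USP44 is not shown. Of each, the 250 bases before the start were searched on both strands for the TATA box with the letters TATAAA, the box named after its letters CCAAT and the GC box with the letters GGGCGG. The search also covered the E-box, spelled CACGTG, the AP-1 motif, spelled TGANTCA, and the ETS motif, spelled CCGGAAGT. A GC box stood in 11 of the 16 windows, while 42.6% of all 35116 RefSeq windows held one. Windows of the same gene are not independent of each other. Counted by gene, with any start sufficing, a GC box stood in 7 of the 9 members, and the like share over all genes was not computed. A CCAAT box stood in 4 of the 16 windows against 32.0% of all windows, and a TATA box in 1 against 10.7%. No window of a member held an E-box or an AP-1 motif, which 6.34% and 6.57% of all windows held, and 1 held an ETS motif, against 3.42%. The match of letters is a description and does not show that a factor binds there.

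The windows of the growth factor, of the ciliary gene and of the endosomal gene are shown because they differ in make-up although the 3 genes shifted in the same sense. They are written 5′ to 3′ on the minus strand, on which all 3 genes lie, and capitals mark the motifs found. The KITLG window, chr12:88580472-88580721, has 69.2% G and C and a TATA box 29 bases before the start. The CEP290 window, chr12:88142089-88142338, has 58.4% G and C and a single GC box far from the start. The EEA1 window, chr12:92929296-92929545, has 77.2% G and C, 7 GC boxes and a CCAAT box, and no TATA box.
KITLG: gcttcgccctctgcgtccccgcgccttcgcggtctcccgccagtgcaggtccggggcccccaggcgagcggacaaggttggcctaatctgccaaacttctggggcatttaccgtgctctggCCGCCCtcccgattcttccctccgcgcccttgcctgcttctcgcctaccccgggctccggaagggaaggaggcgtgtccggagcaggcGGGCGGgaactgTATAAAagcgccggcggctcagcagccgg
CEP290: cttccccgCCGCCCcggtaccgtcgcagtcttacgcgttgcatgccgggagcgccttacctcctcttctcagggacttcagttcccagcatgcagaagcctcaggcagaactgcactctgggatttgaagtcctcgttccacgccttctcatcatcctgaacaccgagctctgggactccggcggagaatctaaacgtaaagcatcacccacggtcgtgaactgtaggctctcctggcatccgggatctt
EEA1: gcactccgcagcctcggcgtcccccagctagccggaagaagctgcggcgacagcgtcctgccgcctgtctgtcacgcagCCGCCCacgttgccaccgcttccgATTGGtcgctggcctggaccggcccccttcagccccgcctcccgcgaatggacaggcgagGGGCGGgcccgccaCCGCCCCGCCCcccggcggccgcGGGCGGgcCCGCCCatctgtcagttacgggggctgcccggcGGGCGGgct
Over all RefSeq windows the median share of G and C was 58.0%. The starts of CEP290 and TMTC3 are 219 bases apart on opposite strands, so that both genes share most of their promoter region. None of the searched motifs other than the GC box was found in more than 2 of the 9 members.

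In the derivative of AsPC1, 9 of the 10 members lay lower than in AsPC1, by 0.31 to 1.0 on the log2 scale, and in the derivative of BxPC3 the same 9 lay higher than in BxPC3, by 0.44 to 1.81. USP44 had a level near that of deleted genes in all 4 groups. In each of the 9 genes the 3 arrays of the derivative did not overlap with the 3 of its parental line, in either line. Groups failed to overlap in the lower direction in 17.3% of all genes for AsPC1-R, and in the higher direction in 19.4% for BxPC3-R. The whole-table test called lower levels for 9 members in AsPC1-R, where it called 8.64% of all genes, and higher levels for 9 members in BxPC3-R, where it called 9.75%. These counts follow from how the members were picked, and nothing is read from them. Over the 10 members the median difference was -0.42 for AsPC1-R minus AsPC1, where that of all genes was -0.05, and 0.67 for BxPC3-R minus BxPC3, where that of all genes was 0.02. In bulk RNA, fewer cells of a type and less RNA per cell cannot be told apart.

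**Figure D1:**
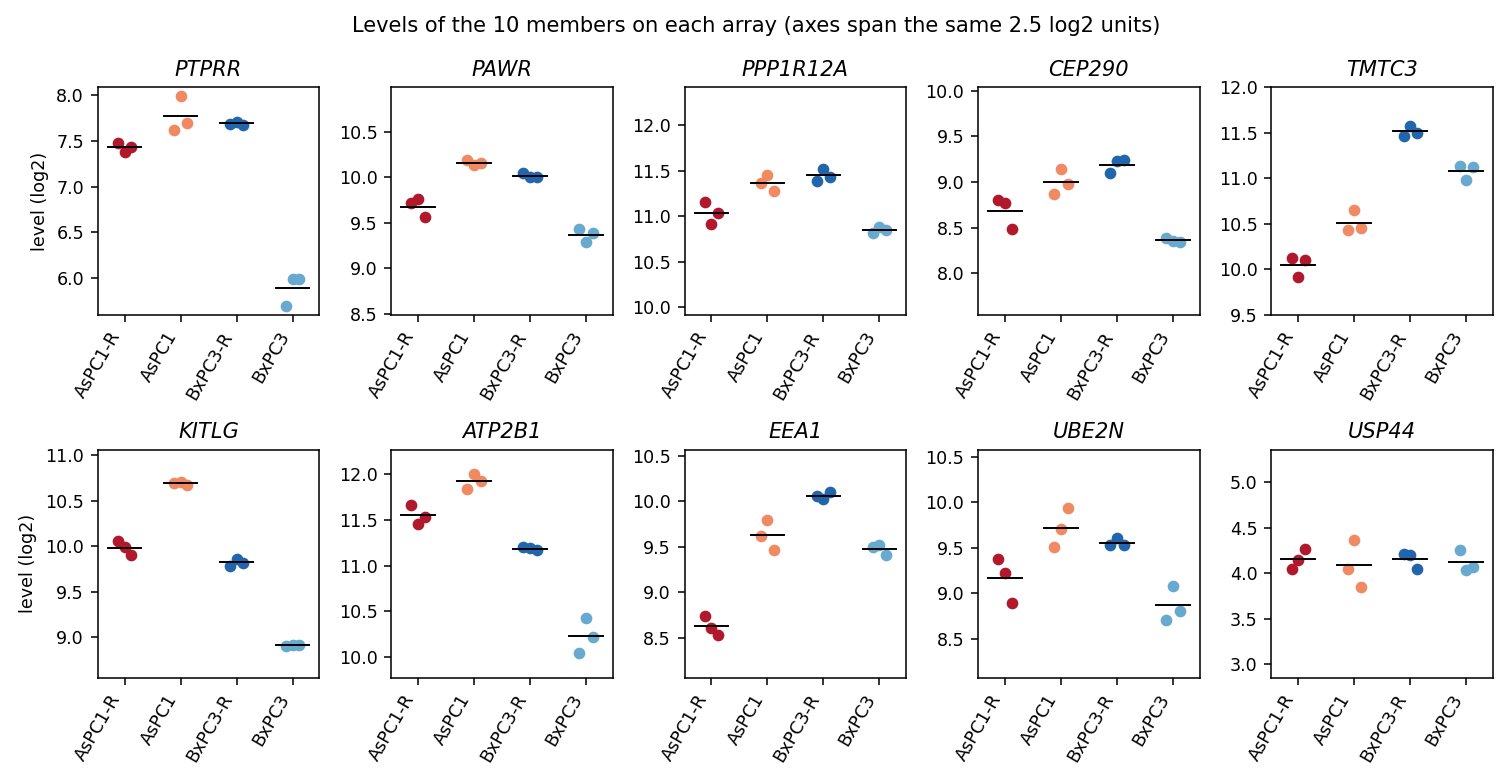
Level (log2) of each member on each of the 12 arrays, in chromosome order, with the 3 arrays of a group as points and their mean as a line. Every axis spans the same range. In 9 panels AsPC1-R lies under AsPC1 and BxPC3-R over BxPC3, and in that of USP44 the groups overlap.

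KITLG, the ligand at the centre of the stretch, had replicates with an SD of at most 0.08. On the log2 scale its level was 10.06, 9.99 and 9.91 on the AsPC1-R arrays, against 10.70, 10.71 and 10.67 on the AsPC1 arrays. It was 9.79, 9.86 and 9.82 on the BxPC3-R arrays, against 8.91, 8.92 and 8.92 on the BxPC3 arrays. All 3 AsPC1-R arrays lay under all AsPC1 arrays and all 3 BxPC3-R arrays over all BxPC3 arrays. The difference was -0.71 (SE 0.07) in the AsPC1 line, a fold of 0.612, and 0.91 (SE 0.07) in the BxPC3 line, a fold of 1.88. The parental lines differed in KITLG by 1.78 (SE 0.07), AsPC1 minus BxPC3, a fold of 3.43. Between the derivatives the difference in means was 0.16, AsPC1-R minus BxPC3-R. So the derivatives had levels that lay between those of the parental lines, which are the highest and lowest of the 4 groups.

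ATP2B1 encodes a calcium pump of the plasma membrane that removes calcium from the cytosol, and it lies 3 measured genes from KITLG. Its levels were 11.66, 11.46 and 11.53 on AsPC1-R arrays, against 11.84, 12 and 11.93 on AsPC1 arrays. On BxPC3-R arrays they were 11.20, 11.19 and 11.17, against 10.04, 10.42 and 10.22 on BxPC3 arrays. The order of groups was the same as for KITLG, AsPC1 highest and BxPC3 lowest, with both derivatives between. The differences were -0.37 (SE 0.10) for AsPC1-R and 0.96 (SE 0.10) for BxPC3-R, and the parental lines differed by 1.70 (SE 0.10).

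PTPRR encodes a receptor-type tyrosine phosphatase that acts on ERK and related kinases. It marks the end of the stretch nearer the centromere. Its levels were 7.48, 7.38 and 7.43 on AsPC1-R arrays, against 7.62, 7.99 and 7.70 on AsPC1 arrays. They were 7.69, 7.71 and 7.68 on BxPC3-R arrays, against 5.69, 5.98 and 5.98 on BxPC3 arrays. BxPC3 stood alone at the bottom, and the other groups lay within a narrow band. The difference for BxPC3-R, 1.81 (SE 0.11) or 3.51-fold, was the widest of the 10 members, and that for AsPC1-R was -0.34 (SE 0.11). The level in BxPC3 was under the mean of 6.22 read there for CDKN2A, a gene known to be deleted in BxPC3, so the size of the PTPRR difference in that line is uncertain. SMAD4, also known to be deleted in BxPC3, read 4.63 in BxPC3-R and 4.70 in BxPC3.

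EEA1, a tether of early endosomes that is recruited by the small GTPase RAB5, differed most in the AsPC1 line. Its levels were 8.74, 8.61 and 8.53 on AsPC1-R arrays, against 9.62, 9.80 and 9.47 on AsPC1 arrays. They were 10.06, 10.02 and 10.10 on BxPC3-R arrays, against 9.50, 9.52 and 9.41 on BxPC3 arrays. AsPC1-R was the lowest group and BxPC3-R the highest, and the parental lines overlapped. AsPC1-R minus AsPC1 was -1.0 (SE 0.09), a fold of 0.5, and BxPC3-R minus BxPC3 was 0.58 (SE 0.09), a fold of 1.5. Between the parental lines the difference was 0.15 (SE 0.09).

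TMTC3, which transfers O-linked mannose to cadherins, was the only member whose AsPC1 arrays all lay under those of BxPC3. It had 10.12, 9.92 and 10.10 on AsPC1-R arrays, against 10.43, 10.65 and 10.46 on AsPC1 arrays. It had 11.47, 11.58 and 11.50 on BxPC3-R arrays, against 11.13, 10.98 and 11.12 on BxPC3 arrays. The 4 groups formed 4 separate bands, with AsPC1-R lowest and BxPC3-R highest. The derivatives differed from their parental lines by -0.47 (SE 0.09) in AsPC1-R and 0.44 (SE 0.09) in BxPC3-R. AsPC1 minus BxPC3 was -0.56 (SE 0.09).

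CEP290, a protein of the ciliary transition zone whose start lies next to that of TMTC3, had 8.68 ± 0.18 in AsPC1-R and 9.0 ± 0.14 in AsPC1 (SD, n = 3 each). It had 9.19 ± 0.07 in BxPC3-R and 8.36 ± 0.03 in BxPC3 (SD, n = 3 each). Its differences were -0.31 (SE 0.10), the smallest of the 9 in the AsPC1 line, and 0.83 (SE 0.10) in the BxPC3 line. Unlike TMTC3 it was higher in AsPC1 than in BxPC3, by 0.64 (SE 0.10).

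PAWR, also called prostate apoptosis response 4, promotes cell death. It had 9.68 ± 0.10 in AsPC1-R and 10.16 ± 0.02 in AsPC1, and 10.01 ± 0.03 in BxPC3-R and 9.37 ± 0.07 in BxPC3 (SD, n = 3 each). The differences were -0.49 (SE 0.08) and 0.65 (SE 0.08). Next to it lies PPP1R12A, the subunit that directs myosin phosphatase to myosin. It had 11.03 ± 0.12 in AsPC1-R and 11.37 ± 0.08 in AsPC1, and 11.44 ± 0.07 in BxPC3-R and 10.85 ± 0.03 in BxPC3 (SD, n = 3 each). Its differences were -0.34 (SE 0.08) and 0.60 (SE 0.08). For both genes the derivative of one line crossed over the derivative of the other, AsPC1-R lying under BxPC3-R while AsPC1 lay over BxPC3. The means of PTPRR, CEP290 and UBE2N crossed in the same way.

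UBE2N, the conjugating enzyme for chains of ubiquitin linked through lysine 63, had the widest replicate spread of the 9. It had 9.16 ± 0.25 in AsPC1-R and 9.72 ± 0.22 in AsPC1, and 9.56 ± 0.04 in BxPC3-R and 8.86 ± 0.19 in BxPC3 (SD, n = 3 each). The differences were -0.55 (SE 0.14) and 0.69 (SE 0.14). A near-identical intronless copy of UBE2N, UBE2NL, lies elsewhere in the genome, so its values may hold signal from both and are uncertain.

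USP44, a ubiquitin protease of the spindle checkpoint, marks the far end of the stretch. It had 4.05, 4.15 and 4.27 on AsPC1-R arrays, against 4.05, 4.36 and 3.85 on AsPC1 arrays. It had 4.21, 4.20 and 4.05 on BxPC3-R arrays, against 4.25, 4.04 and 4.07 on BxPC3 arrays. All groups overlapped, and every mean lay under the reading of the deleted SMAD4 in BxPC3. A difference in USP44 was not detectable at this signal, with 0.07 (SE 0.12) in the AsPC1 line and 0.03 (SE 0.12) in the BxPC3 line.

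Set side by side, the derivatives were closer to each other than the parental lines were in 8 of the 10 members. The exceptions were TMTC3, with -1.47 between the derivatives and -0.56 between the parental lines, and EEA1, with -1.43 and 0.15. The count of 8 includes USP44, which lay at background in all groups. It follows in part from how the members were picked, and its share over all genes was not computed, so nothing is read from it. The comparison of parental lines shares its arrays with both comparisons of a derivative, so the values are not independent of each other. AsPC1 minus BxPC3 was called higher for 7 members, where 27.7% of all genes were called, and lower for 1, where 22.9% were. The members were picked from levels of all 4 groups, so nothing is read from these calls either. The mean deviation of the 10 members from their own means over the 12 arrays was -0.14 ± 0.07 in AsPC1-R and 0.31 ± 0.10 in AsPC1 (SD, n = 3 each). It was 0.29 ± 0.03 in BxPC3-R and -0.46 ± 0.03 in BxPC3 (SD, n = 3 each).

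**Figure D2:**
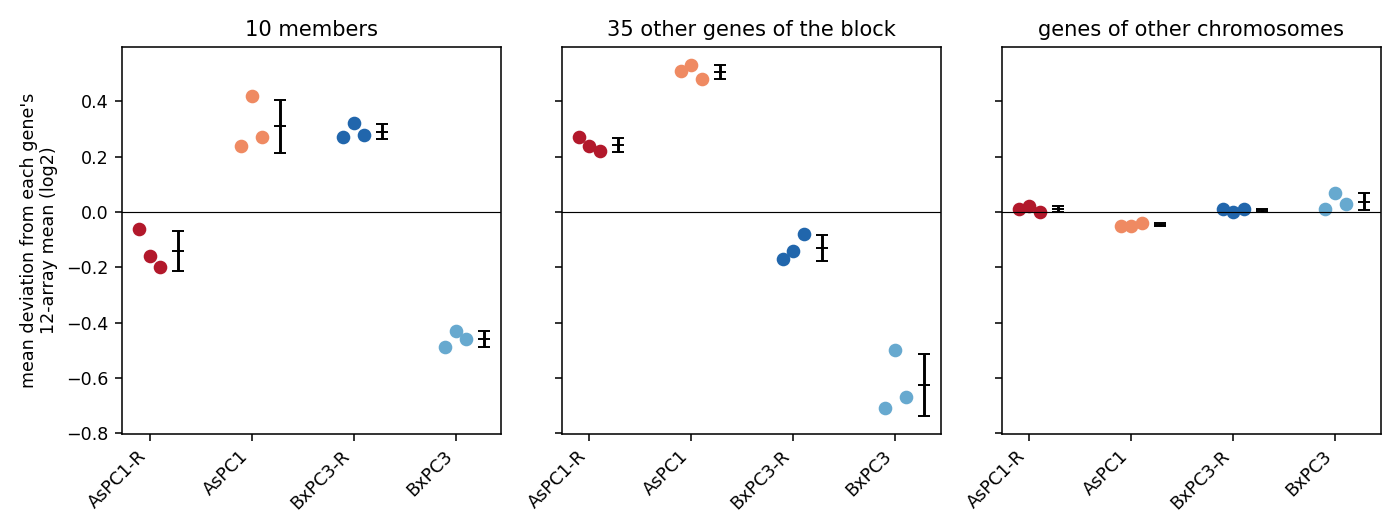
Mean deviation from each gene's mean over the 12 arrays (log2), per array, for the 10 members, the 35 neighbours at or over the median level, and genes of other chromosomes at or over it. Bars give mean and SD of 3 arrays. In the first 2 panels AsPC1-R lies under AsPC1 and BxPC3-R over BxPC3, and genes of other chromosomes stay near 0. Normalization of the arrays and centring of each gene hold the mean of so large a set near 0, so the last panel is no control.

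The neighbours were then counted by the test that was run over all genes, limma with Benjamini-Hochberg adjustment and a threshold of 0.05. The stretch had been picked with results of this window known, so the neighbours are not independent support for its shift. Many neighbours were barely measurable, and 35 of the 68 had a mean at or over 6.55, the median of all values on the arrays. Of these 35, 19 fell and 1 rose in AsPC1-R, 54.3% and 2.86% of them, where 11.3% and 16.5% of all genes at or over that level were called. In BxPC3-R, 25 rose and 1 fell, 71.4% and 2.86%, where 13.6% and 14.3% of all such genes were called. Their median difference was -0.32 for AsPC1-R minus AsPC1 and 0.54 for BxPC3-R minus BxPC3, while the medians of all genes at that level were -0.01 and 0.01. The difference between the lines' changes, tested as an interaction, passed the threshold in the lower direction for 25 of the 35 and in the higher direction for 0, where 14.9% and 18.8% of genes at that level did. Of all 68 neighbours, 22 fell and 1 rose in AsPC1-R, and 29 rose and 3 fell in BxPC3-R. Without AsPC1-R replicate 3 the count of neighbours that fell in AsPC1-R was 13.

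Among the 33 neighbours under the median level, 3 fell and 0 rose in AsPC1-R by limma, and 4 rose and 2 fell in BxPC3-R. Of all genes under that level, 4.4% fell and 3.77% rose in AsPC1-R, and 3.6% rose and 5.83% fell in BxPC3-R. The neighbours' medians were -0.13 and -0.01. For dim genes of other chromosomes the medians were -0.09 and 0.02. USP44 is likewise a gene under the median level.

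LUM, which encodes the matrix proteoglycan lumican, had the widest changes of the neighbours in both lines. It had 10.59, 10.61 and 10.33 on AsPC1-R arrays, against 11.64, 11.42 and 11.57 on AsPC1 arrays. It had 6.39, 6.30 and 6.64 on BxPC3-R arrays, against 4.81, 5.58 and 4.36 on BxPC3 arrays. LUM fell by 1.03 (SE 0.22, limma adjusted p = 0.00409) in AsPC1-R and rose by 1.53 (SE 0.22, limma adjusted p = 0.000186) in BxPC3-R. Its BxPC3 levels were about those of the deleted SMAD4, so the size of its rise is uncertain.

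In all, 16 of the 68 neighbours fell in AsPC1-R and rose in BxPC3-R by limma. RLIG1, an RNA ligase, fell by 0.62 (SE 0.08, limma adjusted p = 0.000105) and rose by 0.28 (SE 0.08, limma adjusted p = 0.0282). That rise was smaller than the difference of any of the 9 members in BxPC3-R. It did not pass without any 1 of the 6 arrays of BxPC3-R and BxPC3, with limma adjusted p between 0.058 and 0.083. NDUFA12, a subunit of respiratory complex I, fell by 0.50 (SE 0.12, limma adjusted p = 0.00785) and rose by 0.69 (SE 0.12, limma adjusted p = 0.000674). OSBPL8, a lipid transfer protein at contacts of the endoplasmic reticulum, fell by 0.41 (SE 0.08) and rose by 0.70 (SE 0.08), with limma adjusted p of 0.00341 and 4.48e-05. METTL25 fell by 0.48 (limma adjusted p = 0.0224) and rose by 0.56 (limma adjusted p = 0.00886), and TMCC3 fell by 0.41 (limma adjusted p = 0.0046) and rose by 0.56 (limma adjusted p = 0.000386). The fall of METTL25 did not pass without AsPC1-R replicate 1 or 3 or without AsPC1 replicate 2 or 3, with limma adjusted p between 0.0548 and 0.0828. The small RNA pseudogene RN7SL737P fell by 0.51 (limma adjusted p = 0.00269) and rose by 0.75 (limma adjusted p = 0.000113), and it may share signal with the many copies of its family.

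Among the other neighbours, 5 fell in AsPC1-R and 13 rose in BxPC3-R while not passing the threshold in the other line. POC1B, a centriolar protein next to ATP2B1, fell by 0.60 (SE 0.09, limma adjusted p = 0.000353) in AsPC1-R and differed by 0.03 (SE 0.09, limma adjusted p = 0.879) in BxPC3-R. Of the 13 that rose in BxPC3-R, the 5 with the widest changes were GLIPR1, KRR1, SOCS2, BBS10 and E2F7. GLIPR1 rose there by 0.96 (SE 0.11), KRR1, a factor of small ribosomal subunit assembly, by 0.95 (SE 0.08), and SOCS2, a suppressor of cytokine signalling, by 0.92 (SE 0.11). BBS10, a chaperonin-like protein of cilia, rose by 0.91 (SE 0.08) and E2F7, a repressor of the cell cycle, by 0.81 (SE 0.10). The largest limma adjusted p of the 5 genes in BxPC3-R was 7.18e-05. In AsPC1-R they differed by 0.03, -0.18, 0.29, -0.02 and -0.02, and the smallest limma adjusted p was 0.0805, that of SOCS2. Without AsPC1 replicate 2, SOCS2 rose in AsPC1-R too, by 0.37 (limma adjusted p = 0.0471). For POC1B and for each of the 5 the difference between the lines' changes passed the threshold, with the largest limma adjusted p, 0.00901, for SOCS2.

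A few neighbours went the other way. FGD6, an exchange factor for CDC42, was the 1 neighbour that rose in AsPC1-R, by 0.40 (SE 0.09, limma adjusted p = 0.00494), and it differed by 0.24 (SE 0.09, limma adjusted p = 0.0794) in BxPC3-R. The BxPC3-R difference of FGD6 passed under 4 alternative settings, among them arrays centred on their medians, with 0.28 (limma adjusted p = 0.0391). ZFC3H1, a factor of nuclear RNA decay, fell in both derivatives, by 0.43 (SE 0.08, limma adjusted p = 0.000999) and 0.36 (SE 0.08, limma adjusted p = 0.00348). PLEKHG7 and MGAT4C also fell in BxPC3-R, by 0.74 (limma adjusted p = 0.0204) and 0.63 (limma adjusted p = 0.000775), at levels lower than the SMAD4 reading of BxPC3. PLEKHG7 did not pass without BxPC3-R replicate 1 or 2 or BxPC3 replicate 1, with limma adjusted p between 0.0573 and 0.101.

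LGR5, LUM and TSPAN8 were the neighbours that AsPC1 exceeded BxPC3 in most. For LUM, which also had the widest changes in the derivatives, the difference was 6.63 (SE 0.22, limma adjusted p = 9.14e-12). LGR5, a receptor for R-spondins known from intestinal stem cells, averaged 11.64 in AsPC1 and 4.90 in BxPC3, a difference of 6.75 (SE 0.33, limma adjusted p = 5.72e-10). TSPAN8, a tetraspanin of epithelial cells, averaged 13.00 in AsPC1 and 7.99 in BxPC3, a difference of 5.01 (SE 0.40, limma adjusted p = 1.19e-07). In AsPC1-R minus AsPC1, LGR5 differed by -0.55 (SE 0.33, limma adjusted p = 0.283) and TSPAN8 by -0.13 (SE 0.40, limma adjusted p = 0.857). In the fit without BxPC3 replicate 2, which is described with the arrays, the same difference of LGR5 passed (-0.55, limma adjusted p = 0.00603), as it did with AsPC1-R and AsPC1 arrays alone (limma adjusted p = 0.0155). The difference between the lines' changes in LGR5 was -0.44 (limma adjusted p = 0.54) with all arrays and -1.01 (limma adjusted p = 0.00135) without that array. Without BxPC3 replicate 2, AsPC1 minus BxPC3 was 7.32 for LGR5, 6.96 for LUM and 5.68 for TSPAN8. TSPAN8 then differed by 0.58 (limma adjusted p = 0.0567) in BxPC3-R minus BxPC3, against -0.09 (limma adjusted p = 0.918) with all arrays. RASSF9 and SYT1 differed most the other way, with AsPC1 minus BxPC3 of -1.79 (limma adjusted p = 8.07e-09) and -1.58 (limma adjusted p = 2.5e-07). RASSF9 rose by 0.65 (SE 0.11, limma adjusted p = 0.000744) in BxPC3-R. Of the 35 neighbours at or over the median level, 28 were higher and 2 lower in AsPC1 than in BxPC3 by limma, where 29.8% and 30.2% of all genes at that level were.

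Beyond the stretch the same signs went on over much of chromosome 12. Of the 50 measured genes before PTPRR, 35 were at or over the median level, and 17 of them fell and 0 rose in AsPC1-R by limma, while 17 rose and 1 fell in BxPC3-R. Of the 50 after USP44, 30 were, with 16 falls and 6 rises in AsPC1-R and 19 rises and 2 falls in BxPC3-R. The medians were -0.31 and 0.24 before the stretch and -0.38 and 0.47 after it. For the rest of the chromosome they were -0.12 and 0.18 on the near side and -0.07 and 0.25 on the far side. The near side takes in the short arm as well as part of the long arm, and the arms were not separated. Genes of other chromosomes had medians of -0.01 and 0.00.

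**Figure D3:**
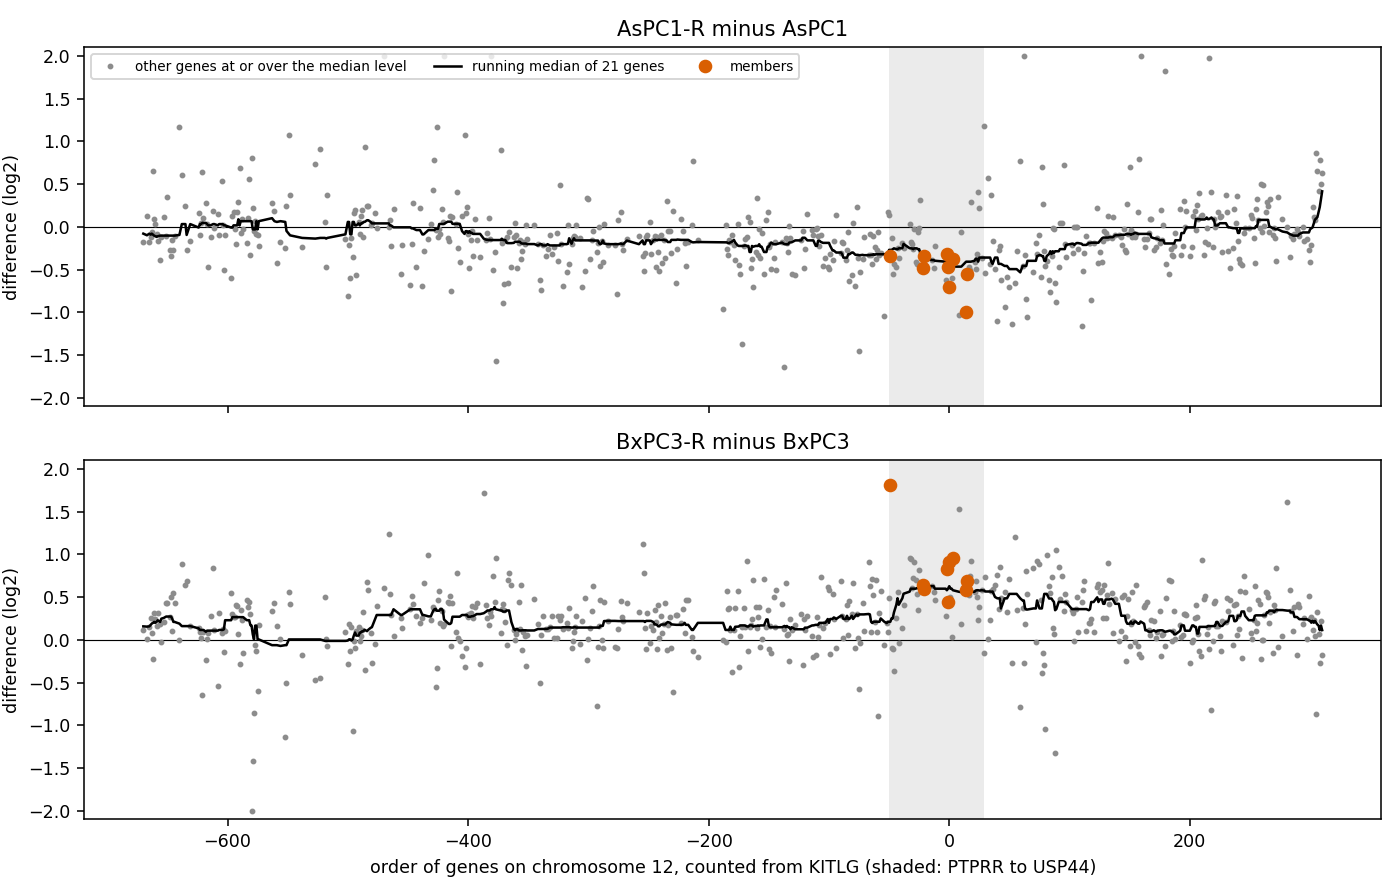
Difference (log2) of each chromosome 12 gene at or over the median level, in gene order from KITLG, for AsPC1-R minus AsPC1 (top) and BxPC3-R minus BxPC3 (bottom), with a running median. Points past the axis are drawn at its edge. At the shaded stretch the running median lies below 0 in the top panel and over 0 in the bottom panel. The shift is not confined to the stretch: such genes among the 50 after it had medians of -0.38 and 0.47. Over the rest of the chromosome, past the 50 genes on either side, medians were nearer 0 than in the stretch.

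Around KITLG the genes at or over the median level kept 1 sign over a run of 18 genes in AsPC1-R, PAWR through RN7SL737P, all lower. NAV3 before the run differed by 0.32 and SOCS2 after it by 0.29. In BxPC3-R the run of higher genes held 37, TRHDE-AS1 through METAP2, with -0.03 for TBC1D15 before it and -0.16 for NTN4 after it. Both runs include members, which were picked for this shift, so the lengths of the runs are partly fixed by that choice. The signs in these runs were not tested gene by gene. PTPRR lay outside the first run although its own difference was negative, since genes of the other sign stood between.

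Being lower in AsPC1-R and higher in BxPC3-R at once, each by limma's adjusted p, was counted for the genes at or over the median level. It held for 15 of the 35 neighbours, or 42.9%. It held for 25.7% of such genes among the 50 before the stretch and for 43.3% among the 50 after it. In the rest of chromosome 12 it held for 10.4% on the near side and 12.8% on the far side. On other chromosomes 231 genes, or 2.15%, did the same, and 5.13% did the reverse, which 0 neighbours did. The chance of such overlaps was not tested.

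**Figure D4:**
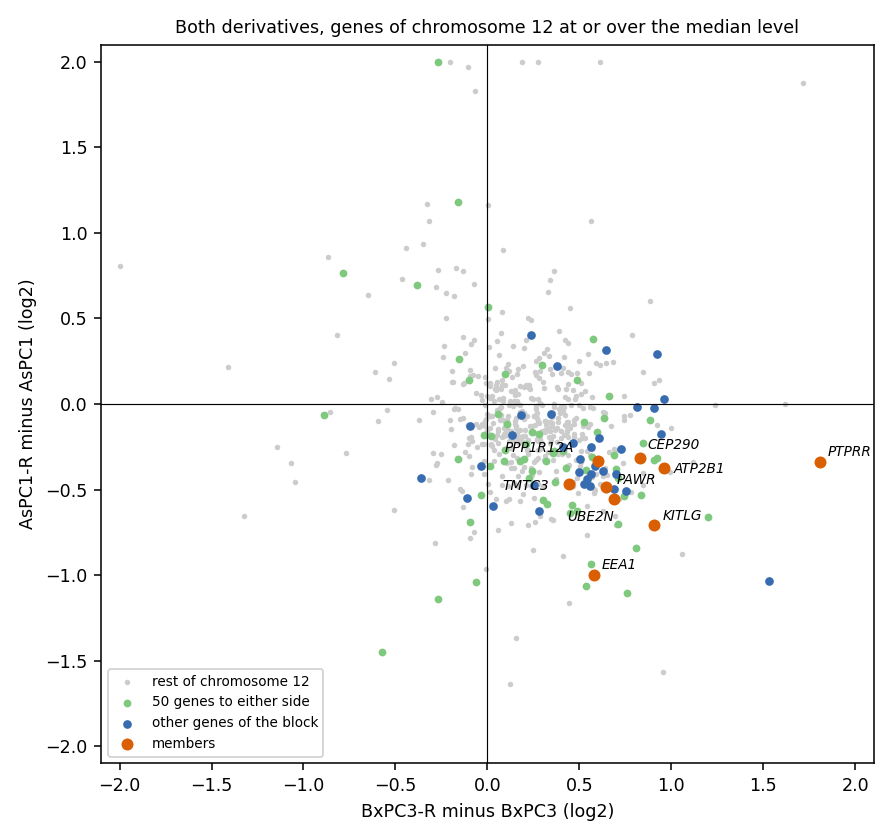
AsPC1-R minus AsPC1 against BxPC3-R minus BxPC3 (both log2) for genes of chromosome 12 at or over the median level, coloured by position. Points past an axis are drawn at its edge. The 9 members lie in the lower right part, with most neighbours around them.

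Over whole chromosomes, chromosome 12 had the lowest median of 23 in AsPC1-R minus AsPC1, -0.13 over 597 genes at or over the median level. It had the highest of 23 in BxPC3-R minus BxPC3, 0.24. Chromosome 1 came next in both comparisons, with -0.09 and 0.08. In AsPC1-R minus AsPC1, chromosomes 15 and 17 lay farther from 0 than chromosome 12, on the higher side, with 0.22 and 0.17. The stretch around KITLG lay beyond the median of chromosome 12 in both lines, with the neighbours' -0.32 and 0.54.

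**Figure D5:**
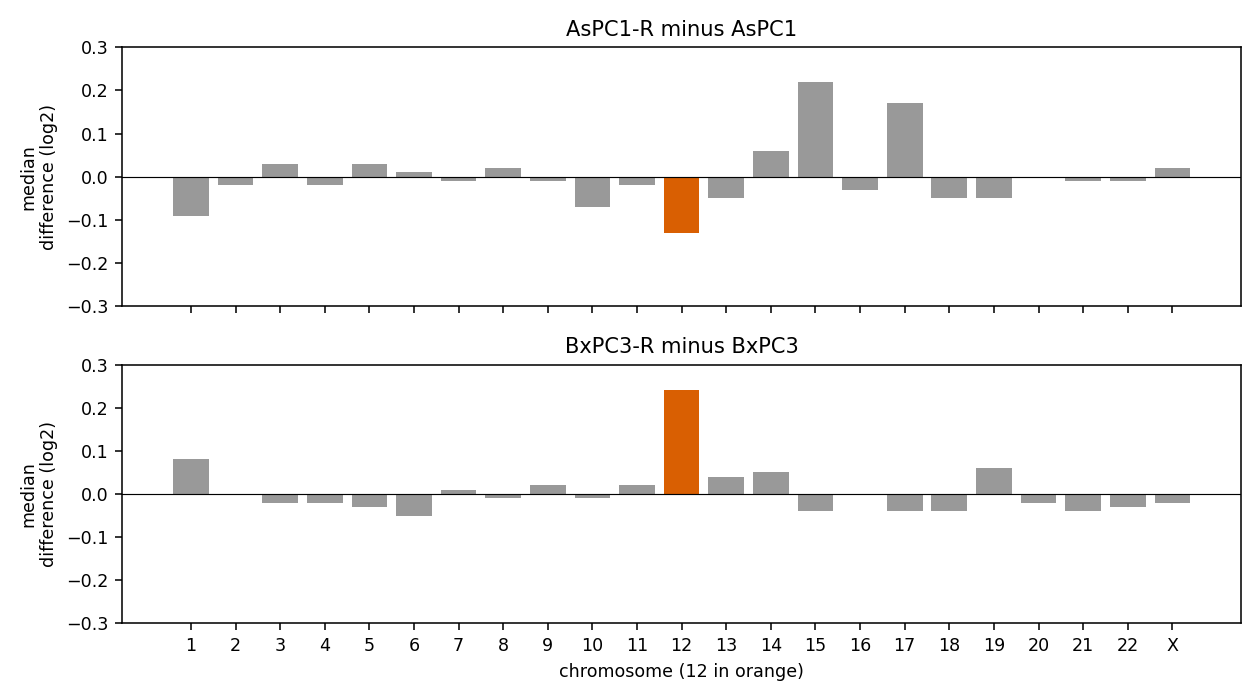
Median difference (log2) of the genes at or over the median level on each chromosome, for AsPC1-R minus AsPC1 (top) and BxPC3-R minus BxPC3 (bottom). Chromosome 12, in orange, has the lowest bar in the top panel and the highest in the bottom one.

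By the pattern of its 4 group means, KITLG was closest to BRI3BP, PLIN2, ATP2B1, PBX3 and METTL25 among 12330 genes. Likeness was the root mean square difference of the group means, each gene centred on its own mean, and it lay between 0.111 for BRI3BP and 0.149 for METTL25 on the log2 scale. ATP2B1 is a member, METTL25 a neighbour and BRI3BP a gene farther along chromosome 12, while PLIN2, a coat protein of lipid droplets, and PBX3, a homeodomain factor, lie on chromosome 9. PLIN2 averaged 8.24 in AsPC1-R and 8.92 in AsPC1, and 8.27 in BxPC3-R and 7.39 in BxPC3. Of the other members PTPRR ranked 252 and UBE2N 374, while EEA1 ranked 9306 and TMTC3 10807, since their parental levels did not follow those of KITLG.

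Genes that work with the members, 140 measured from 11 lists, none of them inside the stretch, had median differences of 0.01 in both lines. Of these, 25 rose and 17 fell in AsPC1-R and 13 rose and 21 fell in BxPC3-R by limma. Among all genes 11.6% were called up and 8.64% down in AsPC1-R, and 9.75% and 11.0% in BxPC3-R. Among genes at or over the median level these shares were 16.5% and 11.3% in AsPC1-R, and 13.6% and 14.3% in BxPC3-R. The lists were chosen with earlier results of these data known, so their counts are a description and not independent support. KIT itself, the receptor of KITLG, averaged 4.06 in AsPC1-R and 4.17 in AsPC1, and 4.02 in BxPC3-R and 4.02 in BxPC3, all under the reading of deleted SMAD4. Its differences were -0.12 (limma adjusted p = 0.715) and 0.00 (limma adjusted p = 0.998). Of 15 genes of KIT and its signalling, 8 rose and 1 fell in AsPC1-R, while 1 rose and 5 fell in BxPC3-R. PIK3R1, the regulatory subunit of PI 3-kinase, rose by 1.22 (SE 0.09, limma adjusted p = 1.91e-07) in AsPC1-R. The kinase LYN rose by 0.55 (SE 0.09, limma adjusted p = 0.000338) in AsPC1-R and fell by 0.82 (SE 0.09, limma adjusted p = 1.13e-05) in BxPC3-R, and the adaptor GAB2 fell by 0.70 (limma adjusted p = 0.000744) in BxPC3-R. The exception that rose in BxPC3-R was the phosphatase PTPN11, by 0.64 (limma adjusted p = 3.21e-05), and it lies on chromosome 12 too.

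For the partners of the other members the counts were mixed. Of 9 ligands related to KITLG, 2 rose and 1 fell in AsPC1-R and 0 rose and 1 fell in BxPC3-R, among them CSF1, which rose by 1.09 (limma adjusted p = 0.000165) and fell by 0.86 (limma adjusted p = 0.00103). Of 18 genes of the ciliary transition zone and satellites, which work with CEP290, 5 rose and 2 fell in each line, led in AsPC1-R by TMEM67 with a rise of 1.70 (limma adjusted p = 3.66e-08). Of 17 early endosome genes, which work beside EEA1, 4 rose and 4 fell in AsPC1-R, and 2 rose and 4 fell in BxPC3-R. APPL2, of that list and on chromosome 12, fell by 0.76 (limma adjusted p = 4.34e-05) in AsPC1-R and rose by 0.54 (limma adjusted p = 0.000693) in BxPC3-R. Of 11 calcium pumps and their partners, 0 rose and 2 fell in AsPC1-R and 1 rose and 0 fell in BxPC3-R, and ATP2B4, another such pump, fell by 0.81 (limma adjusted p = 1.2e-05) in AsPC1-R.

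Of 15 genes of myosin phosphatase and actomyosin, 0 rose and 1 fell in AsPC1-R, and 2 rose and 3 fell in BxPC3-R, where MYH10, a non-muscle myosin, fell by 1.85 (limma adjusted p = 8.87e-08). Of 11 PAWR partners and death genes, 3 rose and 0 fell in AsPC1-R and 0 rose and 3 fell in BxPC3-R. Of 8 O-mannosylation genes, 2 rose and 1 fell in AsPC1-R and 0 rose and 1 fell in BxPC3-R. The one that fell in both was TMTC4, a relative of TMTC3, by 0.46 (limma adjusted p = 0.0026) and 1.47 (limma adjusted p = 9.02e-08). Of 14 genes of lysine 63 ubiquitin signalling, 0 rose and 1 fell in each line. Of 14 spindle checkpoint and histone ubiquitin genes, 0 rose and 3 fell in AsPC1-R and 2 rose and 0 fell in BxPC3-R. Of 8 ERK kinases and phosphatases of the PTPRR class, 1 rose and 1 fell in AsPC1-R and 0 rose and 1 fell in BxPC3-R.

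The arrays had medians between 6.48 and 6.65. All 6 epithelial markers were over the median level, with list means of 10.89 to 11.0 in AsPC1-R and 11.04 to 11.26 in AsPC1, and of 11.44 to 11.55 in BxPC3-R and 10.97 to 11.15 in BxPC3. Of the 6, 0 rose and 2 fell in AsPC1-R, and 3 rose and 0 fell in BxPC3-R by limma. KRT7, KRT8 and KRT18, 3 of the 6 markers, themselves lie on chromosome 12, outside the stretch, and are the 3 that rose in BxPC3-R. CDH1, on chromosome 16, and KRT18 were the 2 that fell in AsPC1-R, where KRT7 differed by 0.18 (limma adjusted p = 0.32). Their part in the members' shift was not tested. Of the mast cell markers, 0 of 2 were over the median level, and of the fibroblast markers 1 of 6, with list means of 5.86 to 6.0 in AsPC1-R, 5.91 to 6.16 in AsPC1, 6.02 to 6.21 in BxPC3-R and 5.94 to 6.0 in BxPC3. Of 5 leukocyte markers 1 rose in AsPC1-R and 2 fell in BxPC3-R, with list means of 6.04 to 6.28 in AsPC1-R, 5.87 to 6.13 in AsPC1, 7.06 to 7.20 in BxPC3-R and 7.37 to 7.54 in BxPC3. Of 4 endothelial markers 1 rose in AsPC1-R and 2 fell in BxPC3-R, with list means of 5.66 to 5.78 in AsPC1-R, 5.46 to 5.84 in AsPC1, 5.75 to 5.83 in BxPC3-R and 6.63 to 6.81 in BxPC3. The part of these lists was not tested either. Among BxPC3 arrays, replicate 2 stood apart. It was the highest of the 3 for all 50 genes with the widest excess of AsPC1 over BxPC3-R, by a median of 0.83. Without it the mean difference of the members in BxPC3-R minus BxPC3 was 0.77, against 0.75 with it, and 29 neighbours still rose and 3 fell. KITLG then differed by 0.91, ATP2B1 by 1.06 and PTPRR by 1.86. RLIG1, with 0.27 (limma adjusted p = 0.0721), no longer passed, and LGR5 rose by 0.46 (limma adjusted p = 0.0326), where with it the difference was -0.11.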

How the data were processed

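Total RNA was amplified with the NuGEN Applause WT-Amp ST system and hybridised to Affymetrix whole-transcript arrays, per the labels' protocols. The authors deposited log2 levels made in Affymetrix Expression Console with RMA, per the submitters' processing notes, so background correction and quantile normalization had been done before deposit and the arrays had like distributions. Scanner files were not used here. Of 33297 probe sets, 19460 were paired with 1 gene symbol, 1754 with several, and 12083 were not paired with a symbol. Gene order on chromosome 12 came from RefSeq, where 18389 of the 18417 genes were matched. The probe sets' own build is not given in the sources used here.

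Differences were fitted with limma 3.58.1 in R 4.3.3 (lmFit and eBayes, a mean for each of the 4 groups, 8 residual degrees of freedom, two-sided), with Benjamini-Hochberg adjustment over all 18417 genes and a threshold of 0.05. Tested on simulated data, the fit called 69% of genes changed by 0.585 (log2) in AsPC1-R minus AsPC1 and 96% of those changed by 1. Only a small part of the genes was changed there, with independent noise, unlike the real data. The shares are therefore a check of the fit and not its sensitivity in these data. Only 3 arrays per group limit the precision.

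The members and the partner lists were chosen with earlier results of these data known. Named besides the members are, among the neighbours, up to 6 per direction and comparison with the largest called change; among partners, up to 4 likewise, and KIT; the 5 genes most like KITLG; and SMAD4 and CDKN2A as readings of deleted genes. Samples of the same replicate number did not deviate together, so the fit is unpaired. Alternatives were the replicate block, dim genes left out, another quantile normalization, arrays centred on medians, eBayes with trend and robust, means over probe sets, array weights, only the groups compared, and each array left out.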

Additional observations from a re-analysis of the deposited data

Results flagged for a closer look

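The changes of the 2 lines, AsPC1-R minus AsPC1 less BxPC3-R minus BxPC3, went opposite ways in 9 members, on every array. On the log2 scale that difference was -2.15 for PTPRR, -1.13 for PAWR, -0.94 for PPP1R12A, -0.91 for TMTC3, -1.14 for CEP290, -1.62 for KITLG, -1.33 for ATP2B1, -1.58 for EEA1 and -1.24 for UBE2N. The fit over all genes covered the members too, but they had been picked for this difference, so no call is read for them.

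For neighbours the difference was tested as an interaction in limma. It passed the threshold, with BxPC3-R the more positive, at -2.56 for LUM, -0.90 for RLIG1, -0.63 for POC1B, -1.26 for RN7SL737P, -1.19 for NDUFA12, -1.04 for METTL25, -0.93 for GLIPR1, -1.12 for KRR1 and -0.63 for SOCS2. The same held at -0.93 for BBS10, -0.83 for E2F7, -1.11 for OSBPL8, -0.97 for TMCC3 and -0.52 for RASSF9. RASSF9 did not pass in 7 of the fits that left out 1 array, with limma adjusted p between 0.051 and 0.0669, lost in those without AsPC1-R replicate 1 or 2, AsPC1 replicate 1 or 2, BxPC3-R replicate 3, or BxPC3 replicate 1 or 3. MGAT4C, at background levels, had 0.57.

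Genes outside the stretch that passed it with AsPC1-R the more positive were TMEM67 at 1.68, PIK3R1 at 1.12, CC2D2A at 1.54, CSF1 at 1.96, MYH10 at 2.11, TMTC4 at 1.0, LYN at 1.37, GAB2 at 0.87 and CDKN2A at 0.70. CDKN2A is known to be deleted in BxPC3, so its value there is taken as background, although its mean of 6.22 lay over the 4.70 of SMAD4. CDKN2A was called lower in BxPC3-R than in BxPC3, by 0.47 (limma adjusted p = 0.0249). That call was lost in 4 of the fits that left out 1 array, with limma adjusted p between 0.0617 and 0.125. With BxPC3-R the more positive were PDGFA at -1.09, ATP2B4 at -1.0, APPL2 at -1.31, TTK at -0.70, ZFYVE9 at -1.09, PTPN11 at -0.72, RPGR at -0.71, RPGRIP1L at -1.04 and MYLK at -0.50. MYLK did not pass in 9 of the fits that left out 1 array, passing only without AsPC1-R replicate 3, AsPC1 replicate 2 or BxPC3 replicate 1, with limma adjusted p between 0.0617 and 0.119 in the others. BRI3BP at -1.25, PLIN2 at -1.56 and PBX3 at -1.35 had been named for a pattern like that of KITLG, which fixes that sign.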

How the results depend on the processing

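The mean difference of the members kept its sign under every alternative that gave one. With dim genes left out USP44 is gone and that mean was not computed. Every alternative used arrays by which the members had been picked. The kept sign and the members' ranges are therefore largely fixed by that choice and are no support for the shift. Leaving out 1 array at a time gave -0.49 to -0.40 for AsPC1-R minus AsPC1, 0.74 to 0.77 for BxPC3-R minus BxPC3, -1.24 to -1.15 for the difference between the lines' changes and 0.72 to 0.81 for AsPC1 minus BxPC3. With it, genes called numbered 2869 to 4246, 2970 to 4181, 3961 to 5296 and 7729 to 9899. Neighbours called up numbered 1 to 2, 28 to 30, 1 to 2 and 36 to 40, and those called down 13 to 23, 2 to 4, 26 to 30 and 6 to 6, in that order. The replicate block, in a design where the numbers do not pair the samples, left 20 neighbours down in AsPC1-R (22 without it) and 29 up in BxPC3-R, and 3553 and 3661 genes called, against 3730 and 3826. Neighbours up in AsPC1-R numbered 2 rather than 1 with dim genes left out, with quantile normalization once more, with trend and robust, and with array weights. Neighbours down in BxPC3-R numbered 1 with dim genes left out and 5 with array weights, rather than 3. With array weights 6356 genes were called in BxPC3-R minus BxPC3, and 2 neighbours were called up, rather than 1, for the difference between the changes. With arrays centred on their medians 44.4% of the genes called for that difference were up, rather than 55.4%. LGR5 in BxPC3-R minus BxPC3, -0.11 with all arrays, ranged between -0.43 and 0.46 with 1 array left out, the higher value without BxPC3 replicate 2. Of 4716 values of members and other named genes under an alternative, 54 changed sign, all 54 of a size of at most 0.21 with all arrays. The members' values were compared by size and sign alone, so losses of their calls were not counted. Among values of the other named genes, 55 fell short of the threshold with the same sign and 37 newly passed it. LGR5 gave the 1 value that passed the threshold with the other sign. The causes were not tested. Values of the array kind have a floor of background signal, near which USP44, KIT and dim neighbours lie, and 1 derivative per line and no DNA measurement limit what the shift can be assigned to.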
